A study of Mus musculus with 12 samples.

Results

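Unstimulated follicular (FO) B cells from the spleens of Jmjd1c KO and WT mice were compared across all genes by RNA-seq. The comparison used the 6 libraries labelled 0 h, 3 Jmjd1c KO and 3 Jmjd1c WT, out of the 12 libraries of the series. They were chosen by genotype and time label alone. The other 6 libraries were made after 2 h of anti-IgM, which ligates the B cell receptor, and serve here only as a second measurement. Each 0 h library shares an identifier in its name with 1 library at 2 h, which was read as the same animal. Each library also has a batch label from 1 to 3 that is shared between genotypes, so the KO and WT libraries of the same number form a pair, and the batch was a block in the model. How the KO allele was made, which part of the gene it removes, whether other cell types lack the gene, as well as mouse strain and age, were not given in the sources used here. Nor is it given how the 0 h cells were handled between sorting and lysis. The labels do not state that replicates are separate animals in so many words. In fits with the block, p values thus measure the spread between these libraries that is left after batch and genotype.

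JMJD1C (KDM3C) belongs to the JmjC family of demethylases, iron-dependent enzymes that remove methyl groups from histone lysines. Its closest relatives KDM3A and KDM3B act on mono- and dimethylated lysine 9 of histone H3 (H3K9), a mark of silent chromatin. FO B cells are the recirculating B cells of the spleen. They rest until they meet antigen, and then divide, enter germinal centres or become plasma cells that secrete antibody. The title of the series names autoimmunity and HIT antibodies (HIT being heparin-induced thrombocytopenia) as what JMJD1C controls, and the resting cells show which transcripts differ before any stimulus.

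Total counts lay between 8121347 and 13796131 per library, so a count of 0 allows up to 3 counts, or 0.203 to 0.405 CPM (counts per 1000000, after library scaling); this floor covers counting error only. Both batch 2 libraries held 12.9% of their counts on Rn45s, the ribosomal RNA precursor, against 0.560% to 1.09% in the other 4. Mki67, a marker of dividing cells, reached 99.2 CPM (WT) and 75.4 CPM (KO) in batch 2, against 9.82 to 16.2 CPM in the other 4. The first principal component, with 43.5% of the variance, set batch 2 apart in both genotypes. Xist stood at 1285 CPM (WT) and 1316 CPM (KO) in batch 1, 46.3 and 36.3 CPM in batch 2 and 1.15 and 1.64 CPM in batch 3. The Y-linked Ddx3y stood at 0.177 and 0.673 CPM, 271 and 319 CPM, and 234 and 258 CPM in the same order. Both libraries of a pair were thus alike in these genes, and both batch 2 libraries held counts of each. Whether each batch 2 library came from 1 animal was not tested.

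The B cell label matched its markers, with Cd79a, a chain of the B cell receptor complex, at 498 to 727 CPM. Summed levels of markers of other cells overlapped between genotypes. T cell markers (14 found of 17) summed to 305 to 425 CPM in WT and 327 to 366 CPM in KO and Cd2, which B cells also express, gave the largest share. Neutrophil markers (11 found of 12) summed to 23.0 to 135 CPM in WT and 64.7 to 80.0 CPM in KO, and monocyte and macrophage markers (16 of 16) to 34.2 to 76.8 CPM in WT and 40.9 to 77.4 CPM in KO. Their direction turned between pairs. The median log2 difference, KO minus WT, of the 14 tested T cell markers was 0.24, -1.07 and -0.053 in pairs 1 to 3, and that of the 8 tested neutrophil markers was 1.80, -1.66 and 0.16. In the fit over all pairs only 1 of the 14 T cell markers had a positive difference, against 50.2% of all tested genes, with a median of -0.18. Of the 8 neutrophil markers 6 had a positive difference, with a median of 0.12. Platelet markers summed to 7.34 to 18.4 CPM in WT and 7.41 to 18.4 CPM in KO. Stromal and endothelial markers (12 of 12) summed to 201 to 249.9 CPM in WT and 219.8 to 233 CPM in KO, with Pecam1 giving the largest share, and 5 of the 12, among them Col3a1, Pdgfra and Madcam1, were at 0 in all libraries. Natural killer cell markers (10 of 10) summed to 16.8 to 34.8 CPM in WT and 16.8 to 27.7 CPM in KO, and dendritic cell markers (11 of 11) to 29.8 to 36.6 CPM in WT and 31.3 to 36.7 CPM in KO. The ranges of other B cell subsets overlapped too, with marginal zone genes at 1569.5 to 1729 CPM in WT and 1611 to 1742 CPM in KO and B1 genes at 135 to 209 CPM in WT and 193 to 216 CPM in KO. The part of other cell types in the results was not tested. Without batch 2 all 23 genes called below were still called, among 88 in all. They were picked in a fit that already held pairs 1 and 3. The neutrophil marker difference of pair 1 also stays in that fit, so it is no test of other cell types.

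Jmjd1c itself was lower in KO but far from absent. It lies at chr10:67096351-67256326 (GRCm38.p6) and was at 401, 365 and 321 CPM in WT replicates 1 to 3 and 256, 265 and 219 CPM in KO. Every KO library was below every WT library. The level fell by 31.9%, from 362 ± 40.2 to 247 ± 24.3 CPM (SD, n = 3), a log2 difference of -0.55 ± 0.072 (SE; edgeR quasi-likelihood test with the batch block, Benjamini-Hochberg adjusted p = 0.00835). Whether the remaining counts come from exons outside the deleted part was not tested.

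Few genes were called between resting KO and WT cells, and most of those differed by less than 2-fold. Of 11737 genes tested, 23 (0.196%) were called at an adjusted p under 0.05, 12 higher in KO (0.102%) and 11 lower (0.0937%), Jmjd1c included. Only 5 of the 23 differed by more than 2-fold, 4 higher and 1 lower, while 36 genes past that size were not called. The median log2 difference over all tested genes was 0.00065. At an unadjusted p under 0.05 there were 971 genes (8.27%), split evenly into 486 higher (4.14%) and 485 lower (4.13%). A count without any model gave 196 genes (1.67%) that differed by at least 0.3 on the log2 scale in the same direction in all 3 pairs, 78 higher (0.665%) and 118 lower (1.01%). All 23 called genes were among them. In 21 of the 23 the libraries of KO and WT did not overlap, against 6.07% of all tested genes. The exceptions were Armc9 and Pmepa1, where only the pairing separated the genotypes. The called genes were picked by a test on these same libraries, so neither count is separate support for the calls.

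**Figure D1:**
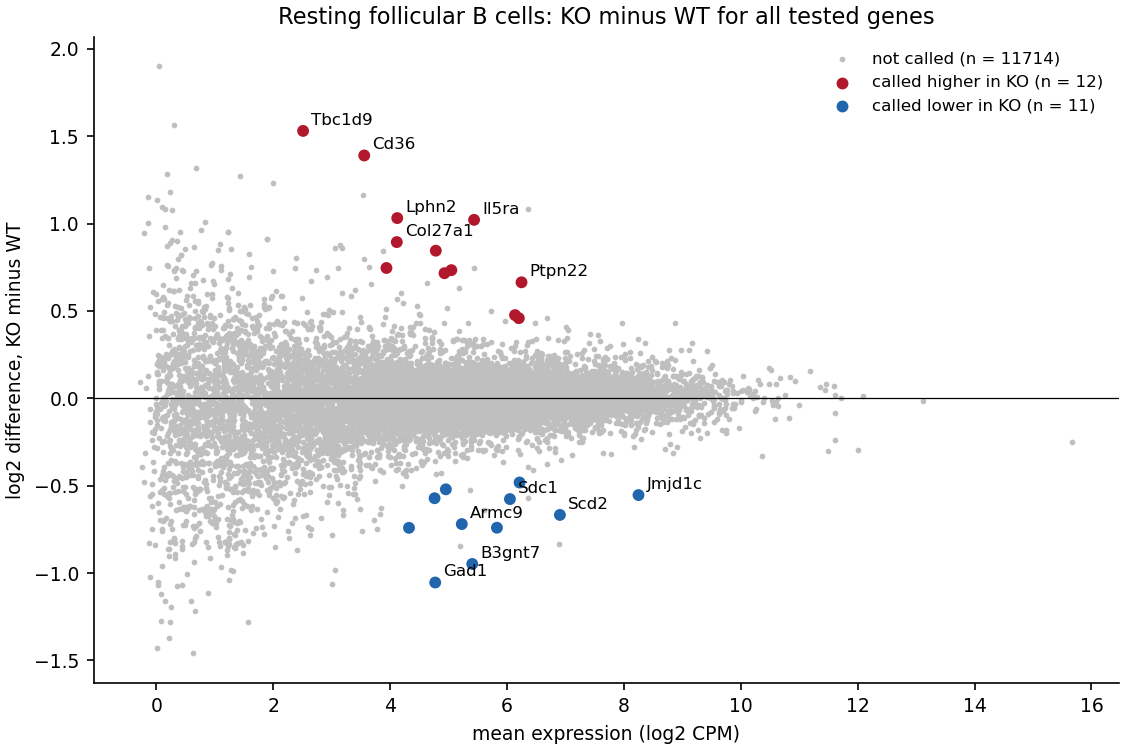
Log2 difference, KO minus WT, against mean expression in log2 CPM for the 11737 tested genes of the 6 resting libraries, with the 12 genes called higher in red and the 11 called lower in blue. The cloud centres on 0, and the called genes lie between -1.05 (Gad1) and 1.53 (Tbc1d9).

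The calls depend on the pairing. Without the replicate block edgeR called 0 genes, with 244 at an unadjusted p under 0.05, and DESeq2 called 3, namely Cd36, Gad1 and Jmjd1c. With the block DESeq2 called 24 genes, 19 of them shared, and limma-voom called 23, all shared. The count rose when a pair was left out, to 67 without pair 1, 88 without pair 2 and 32 without pair 3. All 23 genes stayed called without pair 1 or pair 2, in fits that share libraries with the one that picked them. Without pair 3, 17 remained and Armc9, Cables1, D8Ertd82e, Shank1, Tbc1d9 and Tnik did not. The direction of all 23 was the same in each of these fits. It could hardly change, since all 23 differed the same way in all 3 pairs, so it is no separate support.

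Among the called genes the largest fall was in Gad1, which encodes the glutamate decarboxylase that makes GABA. It was at 32.1, 38.7 and 39.1 CPM in WT replicates 1 to 3 and 14.6, 17.1 and 21.0 CPM in KO. The groups were well apart, and KO was lower by 1.12, 1.17 and 0.89 on the log2 scale in pairs 1 to 3. The fitted difference was -1.05 ± 0.10 (SE, edgeR, adjusted p = 0.00162), a fall of 51.8%. Gad1 was also called in DESeq2 with or without the block.

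Sdc1 and B3gnt7 were both called lower. Sdc1 encodes syndecan-1 (CD138), a heparan sulfate proteoglycan used to mark plasma cells, and was at 90.5, 70.4 and 75.4 CPM in WT replicates 1 to 3 and 62.5, 52.4 and 44.8 CPM in KO. All KO libraries were below all WT libraries, and the log2 difference was -0.58 ± 0.075 (edgeR, adjusted p = 0.00835). B3gnt7 encodes an N-acetylglucosaminyltransferase that extends lactosamine and keratan sulfate chains. Its level was 49.8, 86.6 and 37.2 CPM in WT replicates 1 to 3 and 29.5, 32.5 and 23.1 CPM in KO. WT replicate 2 stood high, and the log2 difference was -0.75, -1.41 and -0.69 in the 3 pairs and -0.95 ± 0.12 in the fit (edgeR, adjusted p = 0.00835).

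Among lipid and folate enzymes, Scd2 and Fpgs fell. Scd2, a stearoyl-CoA desaturase that makes monounsaturated fatty acids, was at 129, 191 and 125 CPM in WT replicates 1 to 3 and 96.7, 108 and 73.1 CPM in KO. No KO library reached a WT one, and the log2 difference was -0.67 ± 0.084 (edgeR, adjusted p = 0.00835). Fpgs, the folylpolyglutamate synthase that keeps folates inside the cell, went from 86.8 ± 8.03 to 61.8 ± 3.67 CPM, a log2 difference of -0.48 ± 0.069 (adjusted p = 0.0136).

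The other 5 called lower genes were mostly signalling and scaffold genes. Pmepa1, a membrane protein induced by TGF-β that dampens its signal, was at 86.1, 77.2 and 48.8 CPM in WT replicates 1 to 3 and 64.3, 38.5 and 26.7 CPM in KO. KO replicate 1 was above WT replicate 3, so the groups overlapped although KO was lower in each pair (log2 difference -0.74 ± 0.10, edgeR, adjusted p = 0.00894). Armc9, which encodes an armadillo-repeat protein of the cilium base, was at 31.8, 43.2 and 63.5 CPM in WT replicates 1 to 3 and 22.9, 23.7 and 36.1 CPM in KO. Here KO replicate 3 was above WT replicate 1, and the log2 difference was -0.72 ± 0.094. Tnik, a kinase of the Wnt and JNK pathways, had a log2 difference of -0.74 ± 0.11 and went from 24.7 ± 5.58 to 14.97 ± 4.29 CPM. Shank1, a scaffold protein best known from synapses, had -0.57 ± 0.093. Cables1, an adaptor between cyclin-dependent and tyrosine kinases, had -0.52 ± 0.086, and its 3 pairs were the closest to each other of the 5 genes, at -0.51, -0.54 and -0.51.

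Ptpn22 was the called higher gene with the smallest p. It encodes a tyrosine phosphatase that dampens antigen receptor signalling and is a known risk gene for autoimmune disease. Its level was 49.4, 53.03 and 73.8 CPM in WT replicates 1 to 3 and 92.8, 86.2 and 98.2 CPM in KO. The lowest KO library was above the highest WT library, and the log2 difference was 0.66 ± 0.087 (edgeR, adjusted p = 0.00835).

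Of the 4 genes that rose more than 2-fold, 3 encode surface receptors. Il5ra, the α chain of the interleukin-5 receptor, was at 19.5, 22.4 and 44.1 CPM in WT replicates 1 to 3 and 57.6, 54.1 and 58.8 CPM in KO. WT replicate 3 was high and the 3 KO libraries were close to each other, so that the pair differences went from 1.55 in pair 1 to 0.41 in pair 3. The fit gave 1.02 ± 0.16 (edgeR, adjusted p = 0.0273). Cd36, a scavenger receptor that takes up fatty acids and oxidised lipoproteins, was at 3.63, 6.88 and 8.82 CPM in WT replicates 1 to 3 and 18.3, 15.2 and 16.1 CPM in KO. KO and WT did not overlap, and the log2 difference was 1.39 ± 0.23 (adjusted p = 0.0274). Lphn2 (Adgrl2 in RefSeq), an adhesion G protein-coupled receptor, was at 7.34, 12.7 and 14.2 CPM in WT replicates 1 to 3 and 21.5, 28.7 and 20.1 CPM in KO (log2 difference 1.03 ± 0.17). In all 3 receptors WT replicate 1 was the lowest library and pair 1 gave the largest difference.

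Vesicle and lipid-handling genes were the next group. Tbc1d9, of a family that regulates Rab GTPases, had the largest log2 difference of all called genes at 1.53 ± 0.25 (edgeR, adjusted p = 0.0274). Its levels were low, at 1.24, 4.72 and 3.19 CPM in WT replicates 1 to 3 and 6.57, 11.3 and 7.44 CPM in KO. Lamp3, a lysosome-associated membrane protein, was at 21.9, 21.7 and 29.8 CPM in WT replicates 1 to 3 and 45.0, 40.0 and 37.9 CPM in KO (log2 difference 0.73 ± 0.12). Smpdl3a, a phosphodiesterase related to acid sphingomyelinase, went from 22.8 ± 6.75 to 37.2 ± 3.95 CPM with 0.72 ± 0.11. All 3 were called, and in none did the groups overlap. Smpdl3a lies 9.28 Mb from Jmjd1c, in a region described at the end.

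The last 5 called higher genes had varied roles. Lmo2, a LIM-domain cofactor of blood transcription factors, was at 55.5, 71.0 and 51.3 CPM in WT replicates 1 to 3 and 81.5, 92.8 and 71.6 CPM in KO. Its log2 difference was 0.48 ± 0.066 (edgeR, adjusted p = 0.0122), one of the smallest of the called genes. Pxdc1, a phox-homology domain protein, had 0.46 ± 0.068, the smallest of all. Col27a1, a fibrillar collagen, had 0.89 ± 0.13, from 12.1 ± 3.85 to 22.3 ± 4.41 CPM. Crisp3, a cysteine-rich secretory protein, had 0.84 ± 0.14, and D8Ertd82e (Prag1 in RefSeq), a pseudokinase, 0.75 ± 0.12. Across the 12 called higher genes, pair 1 gave the largest difference in 9 and pair 3 the smallest in 10, and WT replicate 1 was the lowest WT library in 8. Across the 11 called lower genes, pair 2 gave the largest difference in 7. Neutrophil markers were on the higher side in pair 1, and neutrophil and T cell markers on the lower side in pair 2, by the medians given above; their part in these pair differences was not tested.

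**Figure D2:**
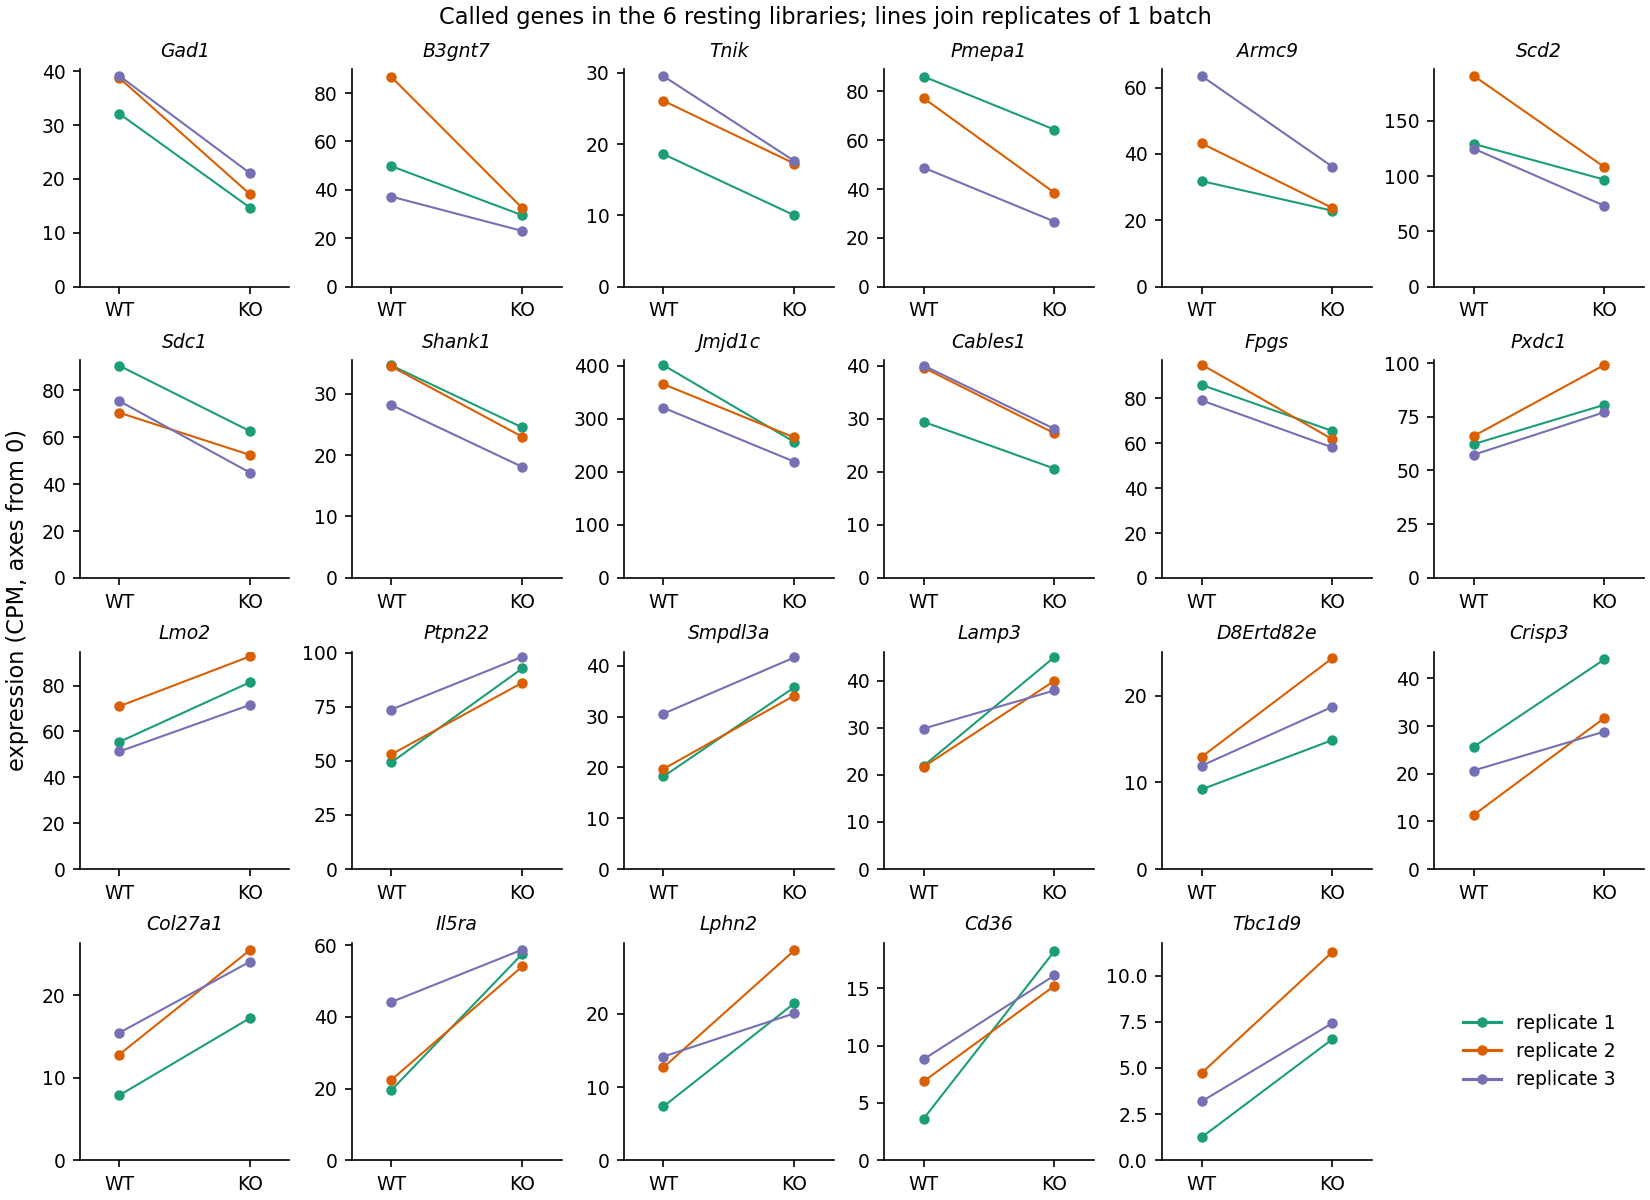
Expression in CPM of the 23 called genes in each resting library, with axes from 0 and lines that join the WT and KO libraries of 1 replicate number. All lines of Gad1 to Fpgs fall and all lines of Pxdc1 to Tbc1d9 rise; for Il5ra and Cd36 the WT points spread more than the KO points.

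Genes outside the threshold included some of similar size. Plk2, a polo-like kinase, had -0.36 ± 0.073 (edgeR, adjusted p = 0.0945), and Wls, which carries Wnt proteins to the cell surface, -0.98 ± 0.20. On the higher side, Tmem154 had 0.80 ± 0.15, the death receptor gene Tnfrsf10b 0.88 ± 0.16 and the transcription factor gene Bhlhe40 0.43 ± 0.081, all 3 with adjusted p = 0.0712 in edgeR. None of these 5 genes was called.

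Promoter sequences of called genes are shown because the sets called higher and lower held different numbers of CpG dinucleotides. RefSeq's promoter table (GRCm38.p6) holds a single start site for 8 of the 12 genes called higher and 5 of the 11 called lower. That start can lie inside the RefSeq span of the gene. It does for Cd36 (span chr5:17781690-17888959), Gad1 (span chr2:70561303-70602014), Lphn2, Fpgs and Col27a1, among others. Their runs thus do not lie before the outer end of the gene. In the 250 bases before the start, 6 of the 8 higher genes had fewer than 5 CpG dinucleotides (75.0%), against 0 of the 5 lower genes and 10.4% of the 7415 tested genes with a single start. The median was 3.5 CpG in the higher set, 16.0 in the lower set and 16.0 over all. Gad1 (chr2:70561879-70562128, plus strand) and B3gnt7 (chr1:86302971-86303220, plus strand) stand for the lower genes, Il5ra (chr6:106749038-106749287, minus strand) and Cd36 (chr5:17835897-17836146, minus strand) for the higher ones. Capitals mark CpG, and each run is printed 5′ to 3′ on the gene's strand.
Gad1: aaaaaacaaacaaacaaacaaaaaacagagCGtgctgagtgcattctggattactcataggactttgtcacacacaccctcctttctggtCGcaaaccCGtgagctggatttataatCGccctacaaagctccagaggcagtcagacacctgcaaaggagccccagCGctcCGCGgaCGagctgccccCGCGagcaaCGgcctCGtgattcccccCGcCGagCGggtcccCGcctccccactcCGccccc
B3gnt7: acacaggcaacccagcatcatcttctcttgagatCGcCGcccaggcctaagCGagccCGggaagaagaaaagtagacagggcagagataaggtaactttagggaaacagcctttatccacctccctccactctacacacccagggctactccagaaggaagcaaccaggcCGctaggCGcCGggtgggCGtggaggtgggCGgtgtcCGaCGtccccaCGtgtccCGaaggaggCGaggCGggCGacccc
Il5ra: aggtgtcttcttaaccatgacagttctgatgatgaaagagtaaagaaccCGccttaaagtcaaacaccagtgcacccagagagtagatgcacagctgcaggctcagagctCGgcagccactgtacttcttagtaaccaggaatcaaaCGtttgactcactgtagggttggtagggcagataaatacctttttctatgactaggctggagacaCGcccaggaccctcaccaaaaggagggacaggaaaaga
Cd36: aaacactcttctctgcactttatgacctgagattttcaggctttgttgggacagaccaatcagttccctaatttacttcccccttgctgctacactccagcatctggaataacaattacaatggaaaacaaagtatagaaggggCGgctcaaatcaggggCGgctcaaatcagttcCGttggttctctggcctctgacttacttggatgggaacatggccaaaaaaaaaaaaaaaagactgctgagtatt
These runs hold 17, 16, 4 and 3 CpG in the order printed. The others with few CpG were Lamp3 and Crisp3 with 0, Lphn2 with 3 and Tbc1d9 with 4, while Pxdc1 had 28 and Col27a1 15. The motif CCAAT, read on both strands, was in 2 of the 8 higher and 3 of the 5 lower promoters, against 37.9% of all. The motif TATAAA, read likewise, was in 3 of 8 and 1 of 5, against 6.31%. The sets also differed in level. Mean CPM in WT was 3.05 to 61.9 over all genes called higher and 24.7 to 362 over all called lower. The background was not matched for expression. The comparison was made after the called genes were known, was not tested, and says nothing about methylation, which was not measured here.

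The libraries at 2 h of anti-IgM gave the called genes a second measurement, in what were read as the same animals. Of the 23 genes, 22 had the same sign at 2 h, against 59.5% of the 11296 genes tested at both times, and 14 of them also had an unadjusted p under 0.05, against 3.67%. With the animals read as shared, this is no independent sample of mice. In the same model on the 2 h libraries edgeR called 0 genes of 11656 (0%), with 543 at an unadjusted p under 0.05. B3gnt7 was at -1.13 ± 0.12 at 2 h beside -0.95 ± 0.12 at rest. Gad1 was at -1.06 ± 0.22 beside -1.05 ± 0.10, and Sdc1 at -0.85 ± 0.15 beside -0.58 ± 0.075. Of the higher genes, Cd36 was at 1.31 ± 0.33 beside 1.39 ± 0.23, and Lmo2 at 0.77 ± 0.16 beside 0.48 ± 0.066. Il5ra (0.52 ± 0.25 beside 1.02 ± 0.16) and Ptpn22 (0.27 ± 0.17 beside 0.66 ± 0.087) had smaller values at 2 h. D8Ertd82e alone had the opposite sign, at -0.12 ± 0.25. These 2 h values differed between pairs. Ptpn22 was at 105, 92.1 and 116 CPM in WT replicates 1 to 3 and 95.8, 148 and 133 CPM in KO, lower in KO only in pair 1. Il5ra was at 12.5 (WT) and 12.9 CPM (KO) in pair 1. D8Ertd82e was at 32.0, 46.5 and 52.8 CPM in WT and 16.2, 67.8 and 46.0 CPM in KO. In earlier results of these data the 2 h libraries of batch 1 stood apart. The 2 h fit was not repeated without batch 1, so its count of calls holds for all 3 batches together only. The difference between the times was tested as an interaction, with the animal, as read from the shared identifier, as block. It was called for 0 of 12242 genes (0%), with 87 at an unadjusted p under 0.05, so for no gene was the KO minus WT difference shown to differ between rest and 2 h.

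**Figure D3:**
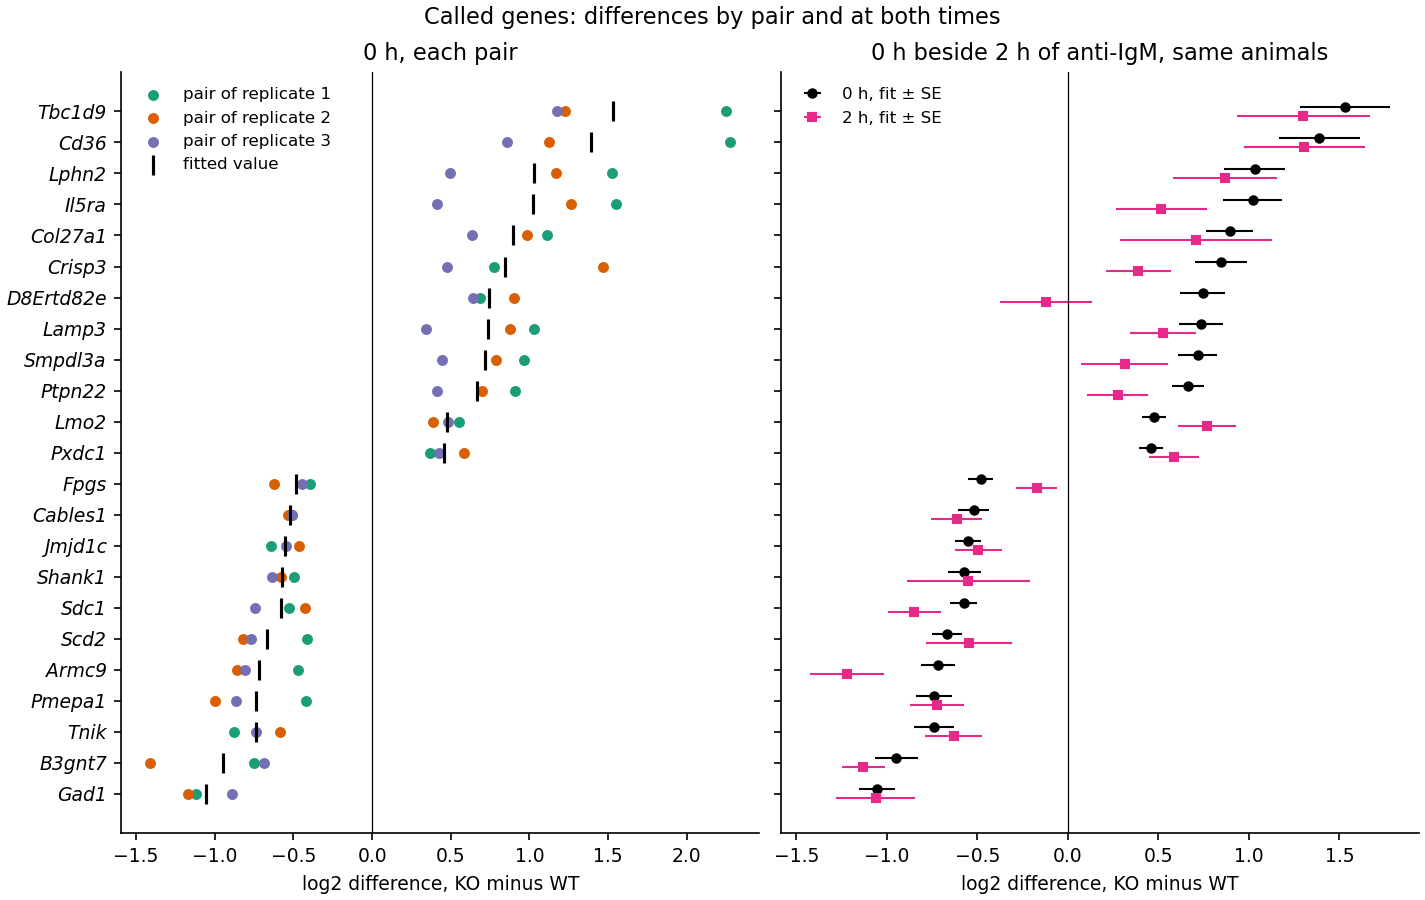
Log2 differences, KO minus WT, of the 23 called genes: in each replicate pair with the fitted value as a tick (left), and at 0 h and 2 h with bars of 1 SE (right). In the left panel all points of a gene lie on 1 side of 0, and in the right panel only D8Ertd82e changes side.

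Gene lists were read by how many members passed, beside the background of all genes. Among 41 lists, 4 held 1 called gene each and no list held more. These were the H3K9 demethylases (Jmjd1c), the B1 list (Ptpn22), the plasma cell list (Sdc1) and the lipid synthesis list (Scd2). At an unadjusted p under 0.05, a description and not a call, the background was 4.14% higher and 4.13% lower. Within a list, higher and lower are counted at that unadjusted p. Over all tested genes 50.2% had a positive difference. A list could lean to 1 sign with a median near 0, as cytosolic ribosomal protein genes did (33 of 39 positive, median 0.043).

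No relative of JMJD1C and no gene of the H3K9 methylation machinery was called. Of 10 tested H3K9 demethylases, 0 were higher and 3 lower at an unadjusted p under 0.05, Jmjd1c among them. The others were Phf2 at -0.17 ± 0.068 and Kdm4a at -0.16 ± 0.071, both demethylases of H3K9 and neither called. The nearest paralogs Kdm3a and Kdm3b were at 0.12 ± 0.072 and -0.048 ± 0.080. Among 19 H3K9 methyltransferases and HP1 silencing genes, 1 was higher, Mphosph8, a reader of methylated H3K9 in the HUSH complex. It was at 82.1, 77.5 and 87.3 CPM in WT replicates 1 to 3 and 102, 90.2 and 102 CPM in KO, with no overlap, but at 0.25 ± 0.064 it was not called (edgeR, adjusted p = 0.228). Of 15 Polycomb and DNA methylation genes, Eed (0.19 ± 0.069) and Ezh2 (0.20 ± 0.087), partners in the complex that methylates H3K27, were higher and 0 lower. Of 15 other histone demethylases, 0 were higher and 1 lower. The medians of the 4 lists were -0.061, -0.031, -0.050 and -0.027.

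Of 23 tested lipid synthesis genes, 17 had a fitted difference above 0, 8 were higher and 2 lower at an unadjusted p under 0.05. The 2 lower were the desaturases Scd2, called, and Scd1, not called. Scd1 was at 1303, 1648 and 1435 CPM in WT replicates 1 to 3 and 1201, 1226 and 1058 CPM in KO, without overlap, a log2 difference of -0.33 ± 0.083 (edgeR, adjusted p = 0.228). None of the 8 higher genes was called. They included sterol pathway enzymes and Insig1, whose product holds back the sterol-sensing machinery. Sqle, the squalene epoxidase, was at 15.1, 19.0 and 22.2 CPM in WT replicates 1 to 3 and 21.2, 27.2 and 30.3 CPM in KO (0.48 ± 0.10, edgeR, adjusted p = 0.118). Its pair differences were 0.48, 0.51 and 0.44, although KO replicate 1 lay below WT replicate 3. Insig1 was at 0.31 ± 0.070 and Cyp51 at 0.30 ± 0.073, each higher in KO in all 3 pairs. Sc5d, Msmo1 and Hmgcs1, further enzymes of the pathway, lay between 0.16 and 0.27. In all 3 pairs 10 of the 23 members were higher and 4 lower. With any pair left out the count was 6 higher and 2 lower. The transcription factor genes Srebf2 and Srebf1, which drive the sterol and fatty acid genes, were at 0.077 ± 0.076 and -0.094 ± 0.064, and Fasn, the fatty acid synthase, at -0.071 ± 0.070.

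Some heat shock genes had higher values in KO. Of 14 tested members of the heat shock and handling list, 6 were higher and 0 lower at an unadjusted p under 0.05, and 0 were called by edgeR. The list median was 0.15, and 0.16, 0.024 and 0.21 in pairs 1 to 3. Dnaja1, a co-chaperone of HSP70, had close values in the pairs, at 0.27 ± 0.063 with differences of 0.24, 0.31 and 0.26. Hsp90aa1 was at 0.18 ± 0.070, Hspa8 at 0.19 ± 0.076 and Hsph1 at 0.23 ± 0.076. The near-identical copies Hspa1a and Hspa1b, whose reads cannot be told apart with certainty, had pair differences of 2.24, -0.21 and 1.35 and of 0.27, 0.35 and 2.11. Without pair 3 the count fell to 3 higher, and without pair 2 it was 8. These genes also respond to handling of cells, and the part of handling was not tested.

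Interferon-stimulated genes had lower values in KO mainly in pair 3. Of 37 tested, 0 were higher and 8 lower at an unadjusted p under 0.05, with a median of -0.16. The medians by pair were 0.038, -0.023 and -0.45, and 33 of the 37 were lower in pair 3, against 12 in pair 1 and 20 in pair 2. Only 7 were lower in all 3 pairs. Mx2, an antiviral GTPase, was at 2.30, 1.35 and 7.26 CPM in WT replicates 1 to 3 and 1.35, 1.65 and 1.34 CPM in KO. WT replicate 3 was the high library. Xaf1, an interferon-induced regulator of cell death, had pair differences of -0.31, -0.13 and -1.50. Without pair 3 the list had 1 member higher and 0 lower, with a median of 0.0068. Without pair 1 it had 0 higher and 15 lower, and without pair 2, 1 higher and 17 lower. In the JAK-STAT list of 17 genes, 0 were higher and 3 lower, Jak3 and Stat3 among them. Stat3, which carries signals of the interleukin-6 and interleukin-10 families, differed alike in each pair, at -0.19, -0.22 and -0.20, but was not called (edgeR, adjusted p = 0.424). Il6st, the shared signalling chain of the interleukin-6 receptors, was at -0.29 ± 0.077, also not called.

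**Figure D4:**
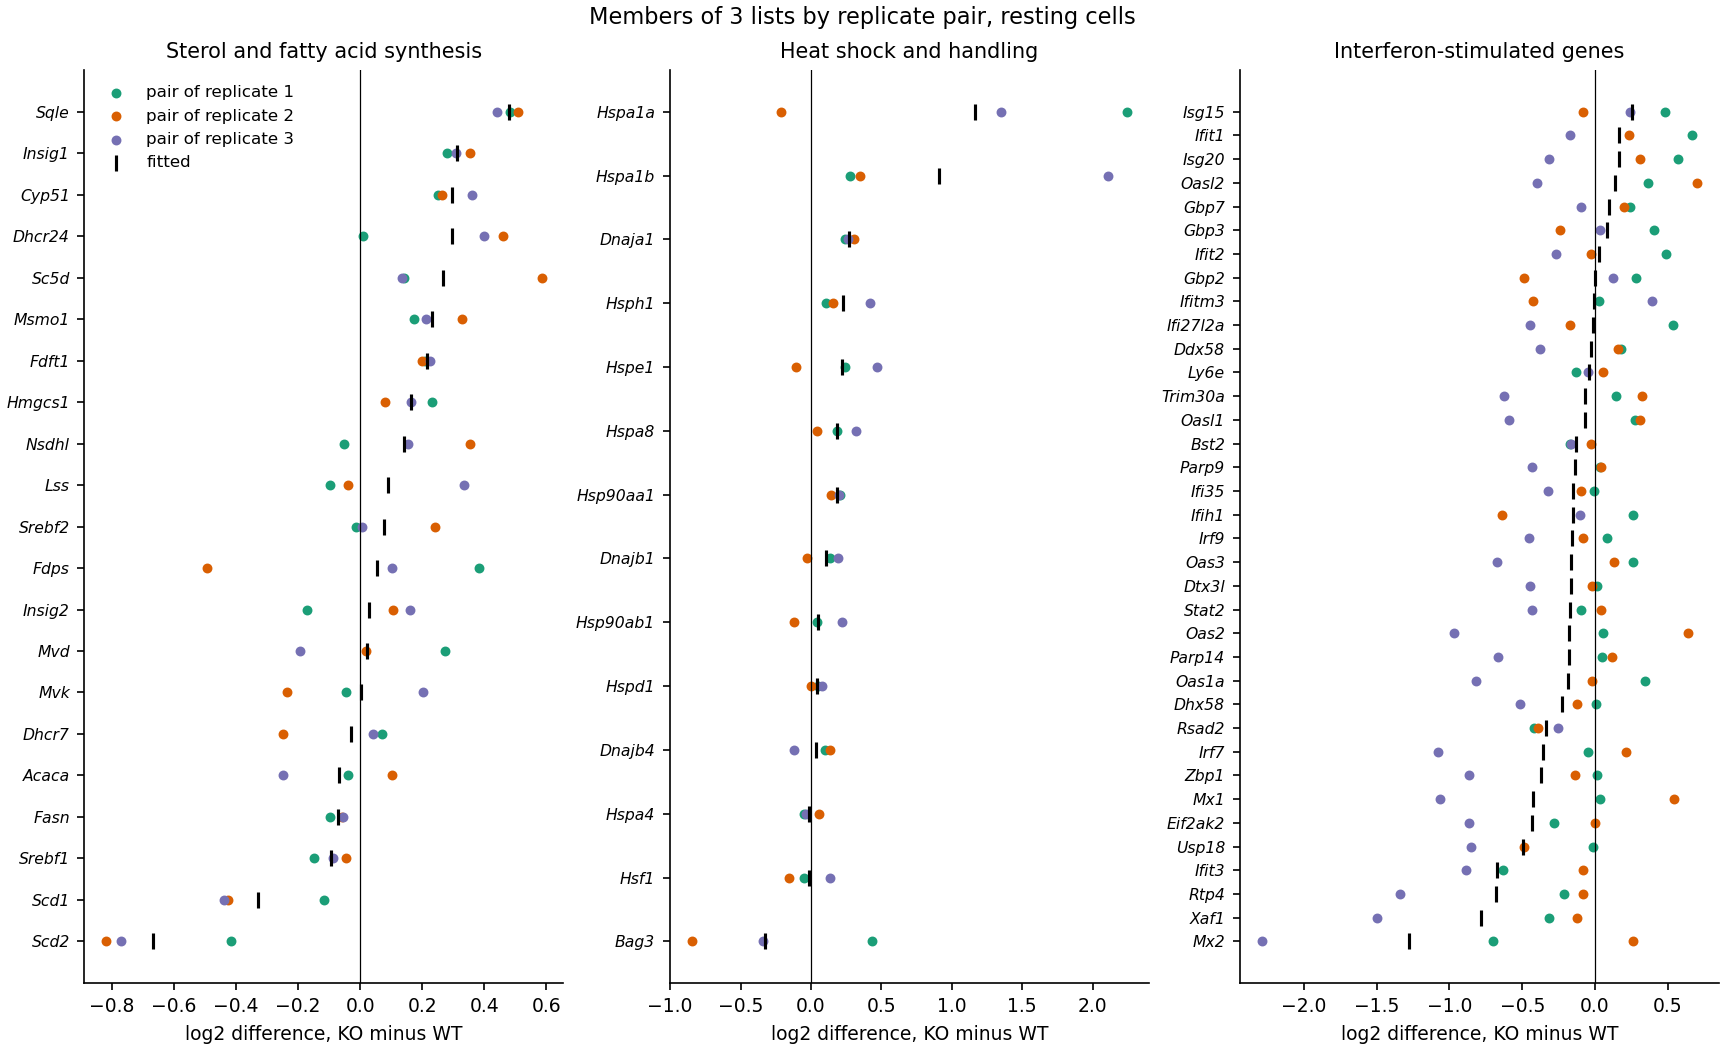
Log2 differences, KO minus WT, in each pair (points) and in the fit (ticks) for the tested genes of sterol and fatty acid synthesis (21 of 23 shown), of heat shock and handling (14) and of the interferon response (36 of 37 shown). The points of Sqle and Scd2 keep to 1 side of 0, while 32 of the 36 interferon-stimulated genes shown have their point of pair 3 to the left of 0.

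No gene of the B cell identity, follicular or receptor signalling lists was called. Of 23 B cell identity genes, 3 were higher and 1 lower at an unadjusted p under 0.05, with a median of 0.058. Ms4a1, which encodes CD20, was at 510.1, 424 and 603 CPM in WT replicates 1 to 3 and 649, 642 and 610.0 CPM in KO (0.32 ± 0.10, edgeR, adjusted p = 0.352). Cd72, an inhibitory receptor, was at 0.22 ± 0.069 with pair differences of 0.21, 0.22 and 0.22. Bach2, the repressor that holds back plasma cell fate, was at -0.18 ± 0.071. Of 11 follicular genes, 3 were higher and 0 lower, led by Fcer2a, which encodes the low-affinity IgE receptor CD23, at 0.28 ± 0.073. Of 30 B cell receptor signalling genes, 4 were higher and 0 lower, and 24 had a positive difference. Rasgrp3, which activates RAS below the receptor, was at 0.32 ± 0.080 without overlap, and the inhibitory Fc receptor gene Fcgr2b at 0.24 ± 0.083.

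Genes of other B cell states gave mixed values. In the plasma cell list of 13 genes, 2 were higher and 1 lower. The lower one was Sdc1, called. The higher ones were Igj, the joining chain of secreted IgM and IgA, at 1.09 ± 0.23 (edgeR, adjusted p = 0.124), and Prdm1, the regulator of plasma cell fate, at 0.40 ± 0.15. Igj was at 18.8, 42.6 and 102 CPM in WT replicates 1 to 3 and 89.3, 54.3 and 175 CPM in KO. WT replicate 1 was low, the groups overlapped, and the pair differences were 2.24, 0.35 and 0.78. The plasma cell list thus held members on both sides. Of 12 germinal centre genes 3 were higher and 0 lower, with Bcl6, the repressor that founds the germinal centre fate, at 0.26 ± 0.069. Of 15 marginal zone genes 2 were higher and 1 lower. S1pr3 was at 0.49 ± 0.16 and Cd9 at 0.59 ± 0.21, while Myof was at -1.06 ± 0.32, with pair differences of -0.16, -2.42 and -0.74. Of 11 B1 genes 1 was higher, Ptpn22, and 2 were lower, Nt5e and Cd5. Cd5, which defines B1a cells but also marks T cells, was at -0.51 ± 0.18. Of 9 transitional genes 3 were higher and 1 lower, with Vpreb3 at 0.41 ± 0.12 and Cd93 at 0.30 ± 0.093. In bulk RNA fewer cells of a type and less RNA per cell cannot be told apart.

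Of 20 genes linked to age-associated B cells and autoimmunity, 3 were higher and 2 lower. Fcrl5, an Fc receptor-like protein, was at 5.84, 4.18 and 8.14 CPM in WT replicates 1 to 3 and 14.6, 9.52 and 9.44 CPM in KO, without overlap (0.86 ± 0.22, edgeR, adjusted p = 0.231). Tbx21, which encodes T-bet, the factor that defines age-associated B cells, was at -0.55 ± 0.22, and Nfatc2, a transcription factor of calcium signalling, at -0.30 ± 0.080. None of the 20 was called.

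No gene of the activation, receptor or antigen presentation lists was called. Of 25 immediate early and activation genes, 3 were higher and 2 lower. Cd69, an early activation antigen, was at 135, 108 and 83.7 CPM in WT replicates 1 to 3 and 195, 159 and 92.1 CPM in KO (0.41 ± 0.087, edgeR, adjusted p = 0.128), and Nr4a3, an orphan nuclear receptor, at -0.26 ± 0.091. Cd40, the receptor for T cell help, was at 0.25 ± 0.064 with pair differences of 0.20, 0.31 and 0.24 and no overlap, though not called (adjusted p = 0.234 in edgeR). It was 1 of 2 higher and 2 lower among 18 cytokine and TNF family receptors. Of 22 NF-κB genes 3 were higher and 0 lower, and of 19 Toll-like receptor genes 2 were higher and 0 lower, with Cd180, a regulator of Toll-like receptor 4, at 0.29 ± 0.071. Among 13 MHC class II presentation genes, 12 had a positive difference, 2 were higher and 0 lower, and the median was 0.070. Nlrc5, the transactivator of MHC class I genes, was at 88.1, 116 and 94.9 CPM in WT replicates 1 to 3 and 81.9, 84.2 and 59.9 CPM in KO (-0.41 ± 0.092, edgeR, adjusted p = 0.156), while B2m, the class I light chain, was at 0.17 ± 0.075.

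Growth and energy genes differed in direction between pairs. Of 39 cytosolic ribosomal protein genes 0 were higher and 0 lower at an unadjusted p under 0.05, with differences from -0.045 to 0.13. Their medians were 0.18, -0.16 and 0.089 in pairs 1 to 3, and 37 of 39 were lower in pair 2. Of 34 nuclear respiratory chain genes 0 were higher and 1 lower, of 26 genes in the list for MYC and ribosome biogenesis 0 and 2, of 26 glycolysis and hypoxia genes 1 and 2, and of 29 proliferation genes 1 and 1. Proliferation genes had medians of 0.16, -0.20 and 0.0075 in the 3 pairs. Of 22 genes of G1 entry and quiescence 2 were higher and 1 lower, of 18 apoptosis genes 1 and 0, of 12 p53 targets 1 and 0, of 18 unfolded protein response genes 3 and 0, of 21 homing and adhesion genes 2 and 0, and of 14 MHC class I genes 1 and 1. No gene of these lists was called by edgeR.

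**Figure D5:**
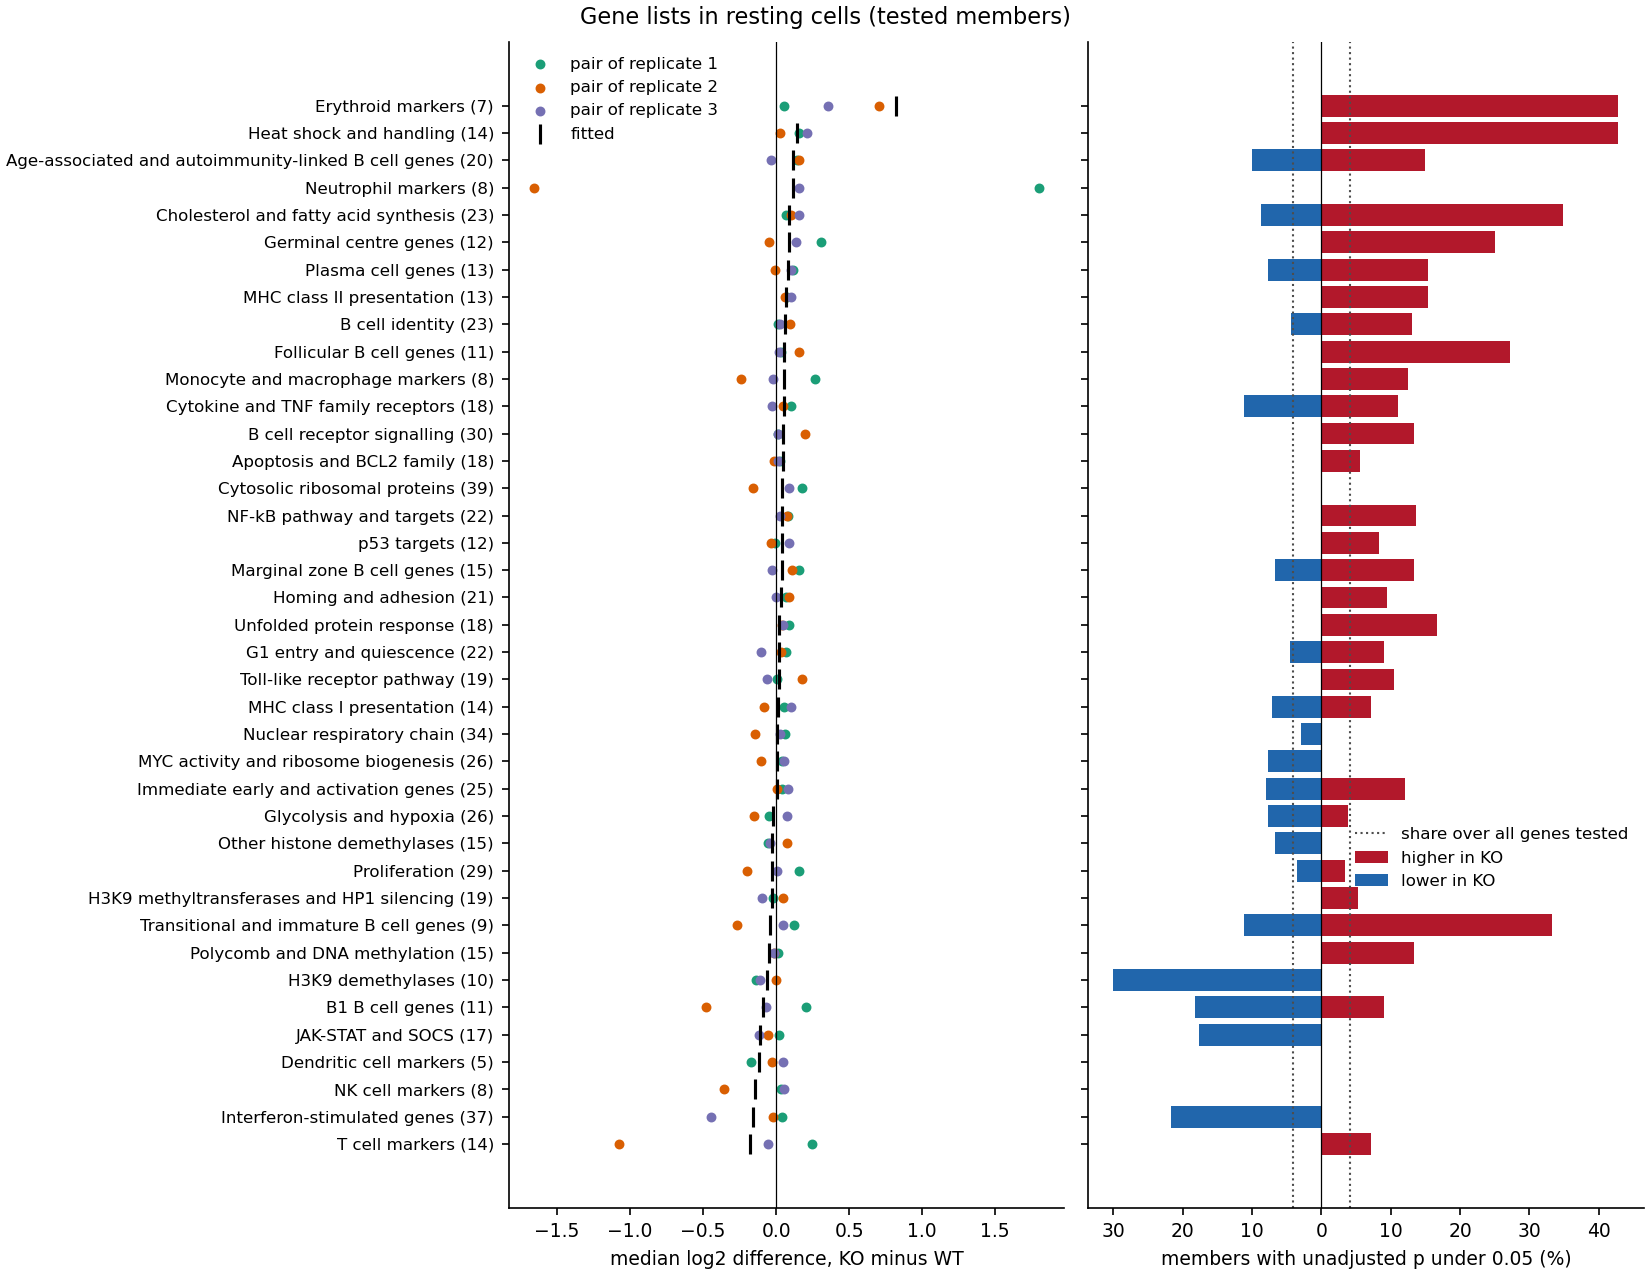
For the 39 lists with at least 5 tested members (number in brackets): the median log2 difference, KO minus WT, in each pair and in the fit (left), and the percentage of members at an unadjusted p under 0.05, lower in KO to the left of 0 and higher to the right, with the shares over all genes as dotted lines (right). The neutrophil and T cell lists spread most between pairs, and the erythroid list, whose haemoglobin genes were at low CPM, has the highest fitted median.

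The erythroid list had the highest median, 0.82 over 7 tested genes, with lower medians in the single pairs (0.055, 0.70 and 0.35 in pairs 1 to 3). Of the 7 genes 3 were higher at an unadjusted p under 0.05. These were Hbb-bs, at 1.59, 7.42 and 0.0678 CPM in WT replicates 1 to 3 and 2.95, 14.1 and 0.149 CPM in KO, where batch 3 rested on 1 and 2 counts, and the copies Hba-a1 and Hba-a2, which carry identical counts. Their levels followed the batch, with batch 2 the highest in both genotypes, and none was called.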

How the data were processed

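Poly(A) RNA of sorted splenic FO B cells was sequenced. The aligner STAR and the build mm10 were used, per the submitters' processing notes. The sources used here do not give the version, the gene annotation, how counting was done or whether it used strand, so reads of antisense or overlapping genes and near-identical copies cannot be told apart. The deposited values are raw counts per gene symbol, 24046 symbols in each file, of which 27 look like dates and are not named. Genes were filtered with filterByExpr, scaled with TMM (factors 0.892 to 1.08) and tested, two-sided, in edgeR 4.0.16 (quasi-likelihood, batch and genotype) under R 4.3.3, with Benjamini-Hochberg adjustment over all tested genes. CPM values are TMM-scaled and computed here, SEs come from the F statistic, and pair differences use log2 CPM with a prior count of 2. The steps were tested on simulated data, with changes put only into genes of higher counts. Of the changed genes 92% were recovered at 1.5-fold and 100% at 2-fold, while 15 of 11402 unchanged genes were called. Recovery of genes with low counts was not tested.

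The labels say that the replicate number marks a shared batch. Library deviations from the group means correlated, across genes, at 0.52 to 0.63 for equal numbers, so the numbers pair the samples. For different numbers the values were -0.47 to -0.082. Deviations from a group mean cancel out within the group, so these negative values follow from the positive ones and add nothing. No 2 libraries of a group agreed within sampling noise.

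The members and gene lists were chosen with earlier results of these data known. The rule named up to 15 genes per direction (called first, then smallest p, mean log2 CPM of at least 1, same sign in 3 pairs) and members of each list; predicted genes, immunoglobulin segments, Y-linked genes and Xist were not named by it. Positions and promoters came from RefSeq (GRCm38.p6), where 99.4% of tested symbols were found. Values of some members are not reported here. Alternatives used RLE factors, other filters, DESeq2 1.42.0, limma-voom (limma 3.58.1), other sets of libraries and pairs left out.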

Additional observations from a re-analysis of the deposited data

How the results depend on the processing

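The sign of the 23 called genes was the same under all 13 alternatives, but the number of calls was not. All 23 differed the same way in all 3 pairs, and the alternatives reuse these libraries. The kept sign is thus no separate support for the calls. Without the replicate block 0 genes were called (0 higher, 0 lower, 0 in the lists) and 244 had an unadjusted p under 0.05. Jmjd1c kept -0.55 but with adjusted p = 0.9999. With all 12 libraries and the block the counts were 0, 0, 0 and 0, with 160 at an unadjusted p under 0.05, and Jmjd1c was at -0.55 with adjusted p = 0.99997. Over the 13 alternatives the adjusted p of Jmjd1c went down to 2.73e-09. Without both 2 h libraries of batch 1, 5 were called, 0 higher and 5 lower, 2 of them in lists: B3gnt7, Gad1, Jmjd1c, Pmepa1 and Scd2. With no filter on low counts there were 190, 105 higher, 85 lower and 34 in lists, the 23 included. DESeq2 without the block called 3 (1 higher, 2 lower, 1 in a list), with 181 at an unadjusted p under 0.05, and with the block it had 341 at that level and did not call Il5ra, D8Ertd82e, Shank1 and Cables1. RLE factors did not call Crisp3. Leaving out a pair gave 32 to 88 calls, 24 to 42 higher, 8 to 46 lower, and 6 to 16 in lists against 4. A minimum shift of 0.5 left 52 genes shifted in all 3 pairs. The cause of these changes was not tested. The interaction was called for 0 genes under the batch block (86 at an unadjusted p under 0.05) and without both 2 h libraries of batch 1 (121). Of 533 list medians recomputed, 512 moved by less than their spread and 21 by more. Depth limits low genes: 3 counts are 0.203 to 0.405 CPM.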

Other observations

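Positions of the called genes were looked at after their values were seen. Armc9 and B3gnt7, both called lower, are neighbours on chromosome 1, with 24.9 kb between them. Of 11 other tested genes within 500 kb of B3gnt7, 0 had an unadjusted p under 0.05 in edgeR, and their median log2 difference was 0.011.

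Around Jmjd1c, 95 other genes within 10 Mb were tested. Of these 16 (16.8%) had an unadjusted p under 0.05, against 8.27% of all genes, 12 higher and 4 lower. Smpdl3a was the called one, 9.28 Mb away. Within 1 Mb, 1 of 5 tested genes had such a p, Reep3, at 0.22. The part of strain sequence that flanks the KO allele was not tested.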
